A study of Mus musculus with 60 samples.

Results

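The genes described here encode the machinery that fuses vesicles with membranes: the synaptotagmins, the SNARE proteins and their partners, and the synapsins and other proteins of the synaptic vesicle. They were taken by symbol from the annotation of the Illumina MouseWG-6 v2 array, as every gene whose name begins with Syt, Stx, Vamp, Snap2, Stxbp, Cplx or Sv2, together with Syn1, Syn2, Syn3 and Syp. The rule gave 62 genes, of 19057 named genes on the array, read by 123 of its 45281 probes, and each gene is given by its brightest probe unless another is named. Gene symbols are those of the array annotation, so that the genes now called Stx4 and Stx5 appear as Stx4a and Stx5a.

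The hippocampus of male C57BL/6J mice aged 8 to 10 weeks was profiled after a single intraperitoneal injection of 1 of 3 antagonists of the NMDA receptor, the glutamate-gated channel that admits calcium into neurons. The drugs were ketamine at 20 mg/kg, memantine at 15 mg/kg and phencyclidine (PCP) at 5 mg/kg, and control mice received saline or were left without injection (naive). Tissue was taken 1, 2, 4 or 8 h later, and each of the 20 groups was measured on 3 arrays. RNA of 2 mice was pooled for each array, so that 60 arrays were available and differences between single animals could not be seen. The doses differ between the drugs, so their values are set side by side without a test between them, and all 3 drugs were compared with the same saline arrays.

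At a synapse, a vesicle protein of the VAMP (synaptobrevin) family zips together with syntaxin and SNAP-25 of the plasma membrane, and this SNARE complex pulls the membranes into contact. Complexin holds the partly zipped complex, and synaptotagmin, which binds calcium, triggers fusion when an action potential arrives. Synapsins keep a reserve of vesicles clustered behind the release site, and other syntaxins, VAMPs and synaptotagmins carry out fusion on the Golgi apparatus, endosomes and lysosomes of every cell.

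No gene of this machinery changed beyond the threshold in any of 20 comparisons: 0 of 62 passed an adjusted p of 0.05 in limma's moderated test with Benjamini-Hochberg adjustment over all probes. At most 0.258% of all probes passed in any of these comparisons (time), so a count of 0 among 62 genes says little about this machinery in particular. The largest differences at a single time were of 0.75 or less on the log2 scale, and the largest of the means over the 4 times were of 0.37 or less. As each array held RNA of pooled mice, p-values measure the spread between arrays.

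Most of the machinery was bright on these arrays. Of the 62 genes, 48 lay in the brighter 50% of all probes, whose median level was 6.942 on the log2 scale of normalized intensity. This line is over single probes, 10378 of them with no symbol, while 35 of the 62 genes are given by the brightest of several probes. The same share for the other genes of the array is not given. The proteins of fast release were among the brightest probes: over the 60 arrays, Syt1, the calcium sensor of synchronous release, ranged from 14.63 to 15.38 with a mean of 15.14. Cplx1, a complexin, averaged 14.98 (14.52 to 15.22), and Syp, the synaptophysin of the vesicle membrane, averaged 14.47 (14.12 to 14.78). A probe's brightness also depends on its sequence, so these levels do not rank the transcripts by abundance.

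The remaining vesicle proteins of fast release were also far above the median probe. Syn1, which tethers vesicles to each other and to actin, averaged 13.69, and its relative Syn2 averaged 12.72. Sv2a and Sv2b, glycoproteins of the vesicle membrane, averaged 13.36 and 13.13, and Vamp2, the main vesicle SNARE of the forebrain, averaged 13.36. Stx1a, a SNARE of the plasma membrane, averaged 12.52. The SD within groups was 0.121 for Vamp2, 0.124 for Sv2a, 0.144 for Sv2b, 0.148 for Syn1 and 0.155 for Syt1, but 0.218 for Stx1a and 0.240 for Syn2, against a median of 0.248 over all probes and of 0.225 over the 62 genes.

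Other compartments were represented as well. All 7 VAMPs were in the brighter 50%, among them Vamp4 of the trans-Golgi network and endosomes (12.11), Vamp7 of late endosomes and lysosomes (10.06) and Vamp8, an endosomal SNARE (9.128). Of the 14 syntaxins, 12 were in the brighter 50%, among them Stx7 and Stx12 of endosomes (12.52 and 11.48) and Stx5a of the Golgi apparatus (12.19). Of the 17 synaptotagmins, 11 were in the brighter 50%, with Syt4, which lacks a calcium ligand in its first C2 domain, at 12.63 and Syt11, which does not bind calcium, at 10.75. The calcium sensor of slow release, Syt7, averaged 11.40.

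The 14 genes in the dimmer 50% were Syt2, Syt6, Syt8, Syt10, Syt14, Syt15, Sytl5, Sv2c, Stx11, Stx16, Snap25, Stxbp6, Cplx3 and Cplx4. Snap25, a SNARE of the plasma membrane that every neuron uses, averaged 6.533, and its other probe was dim as well, so that these arrays gave little information on that transcript. Within groups, the dim members had a median SD of 0.275, against 0.196 for the members in the brighter 50%. The plot of levels by array shows the same contrast between a narrow spread at high signal and a wide one near the median probe.

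**Figure D1:**
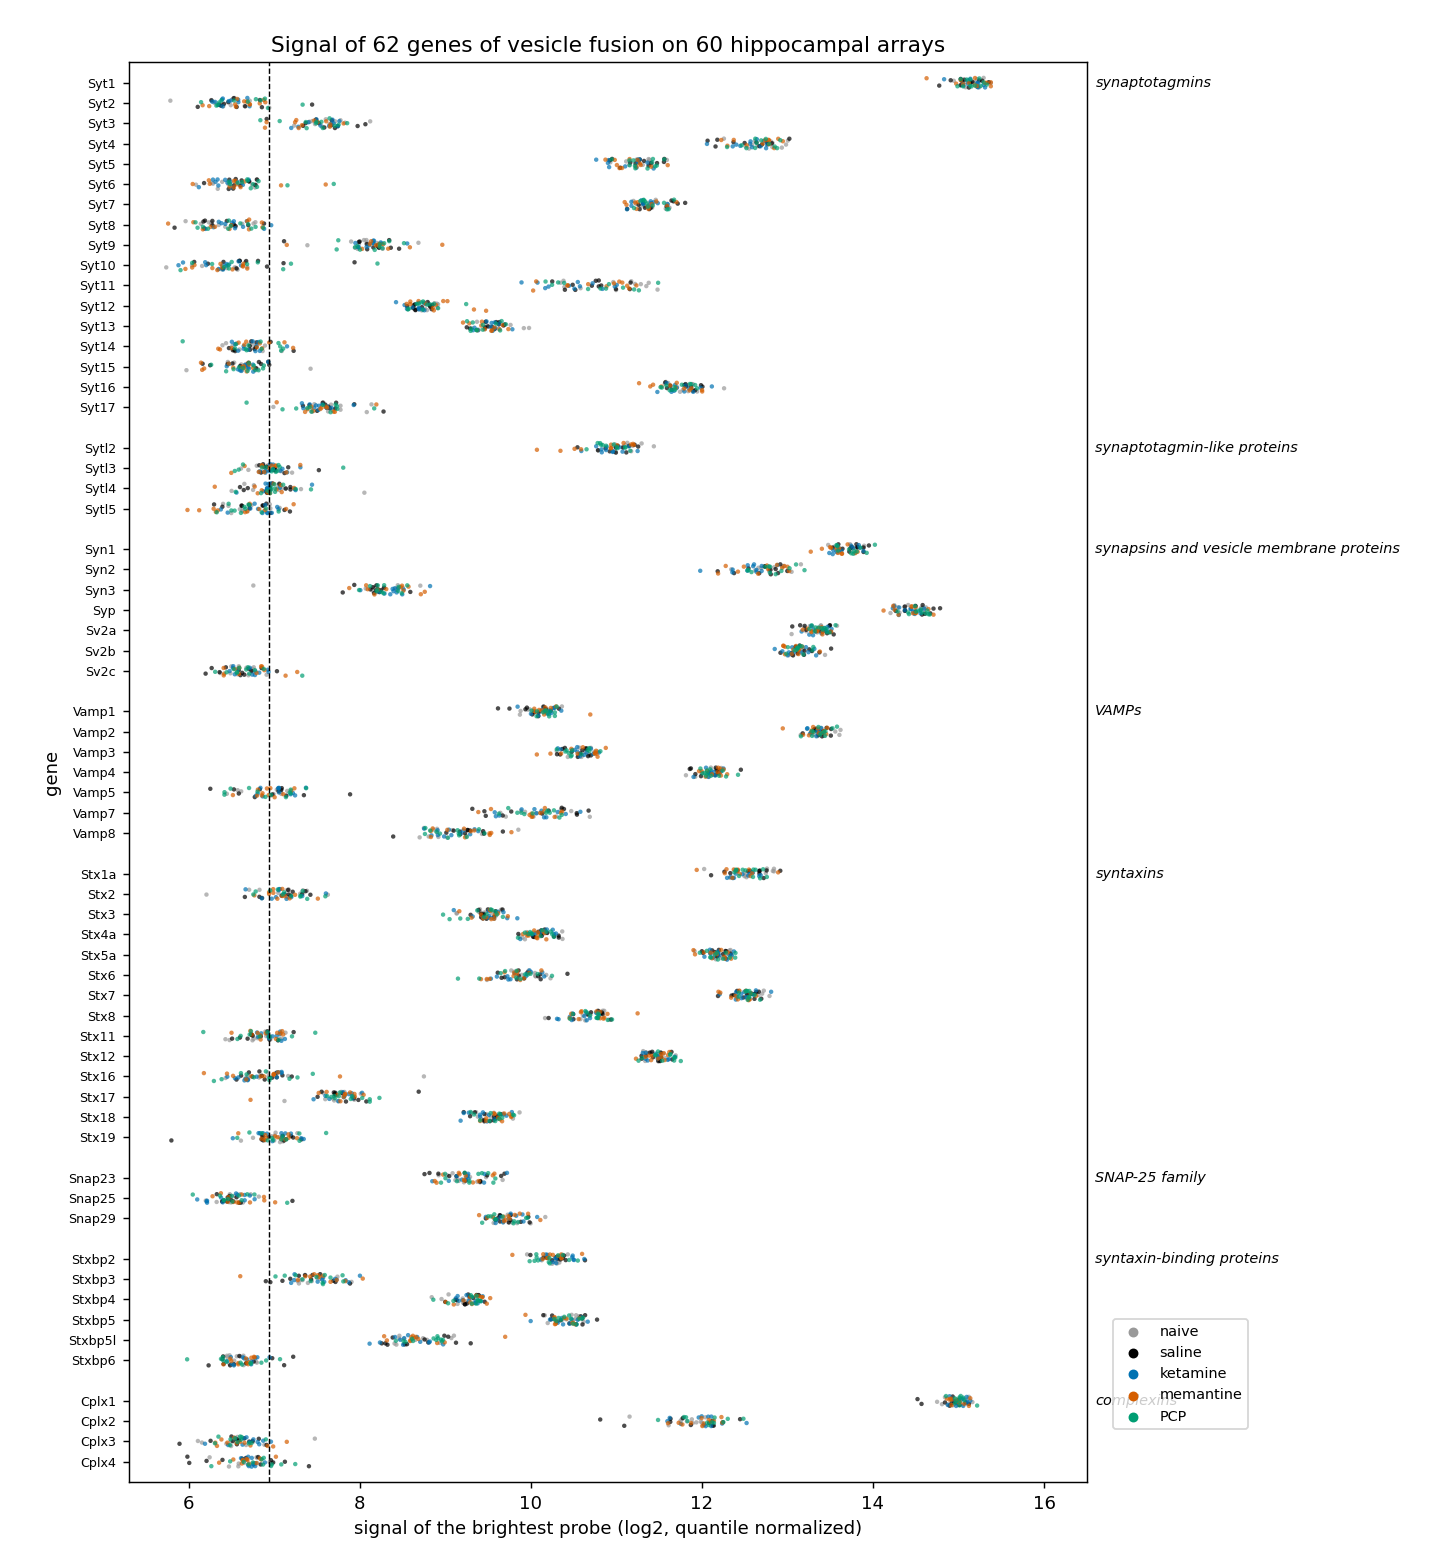
Signal of the brightest probe of each of the 62 genes on each of the 60 arrays (horizontal axis, log2 of normalized intensity), with genes grouped by family and points coloured by treatment. The dashed line is the median of all probes at 6.942, and 48 genes have a mean above it.

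Several arrays stood apart, and for many results that rest on them the values without them are given as well. On 7 arrays of 2 slides the 5th percentile of intensity was 314.1 to 859.5, against 99.71 to 240.1 on the other 53, which narrows the range above background. They were memantine 8 h replicate 3, naive 8 h replicate 1, saline 2 h replicate 3, saline 4 h replicate 3, PCP 1 h replicate 1, PCP 4 h replicate 2 and PCP 8 h replicate 2. Ketamine 2 h replicate 2 had a mean level of 11.30 over 10 striatal markers, against 9.02 on the next highest array and a median of 8.87. Memantine 1 h replicate 2 had a mean of 9.53 over 8 thalamic markers, against 8.94 on memantine 2 h replicate 1, the next highest, and a median of 8.54. Markers of the hippocampal subfields were present throughout, with 10 of 11 in the brighter 50%, among them Prox1 of granule cells and Wfs1 of CA1 neurons. The 9 markers of the choroid plexus, the tissue that secretes cerebrospinal fluid, varied between arrays from 7.61 to 10.91 in mean level. One of them, Ttr, was the single probe past the threshold between saline and naive mice (1.13 higher with saline, SE 0.12, adjusted p = 9.23e-05 by limma), and against saline the medians of the 9 in the mean over the times were -0.726 with ketamine, -0.382 with memantine and -0.694 with PCP. The part of these markers in the differences of the 62 genes was not tested. In tissue of this kind, fewer cells of a type and less RNA per cell cannot be told apart.

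The first question was whether a drug shifted the machinery across the whole course, which was asked by averaging the differences from saline at the 4 times over 24 arrays. With ketamine, 0 of the 62 genes passed, and 0.00221% of all probes did. At an unadjusted p under 0.05, 3 of the 62 genes (4.84%) stood beside 6.55% of all probes. The median difference was -0.00433 for the 62 genes and 0.00325 for all probes, with 29 genes higher and 33 lower. The 3 genes were Syn3, Syt10 and Stxbp3.

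Syn3, the synapsin of developing neurons and of neurogenesis in the adult dentate gyrus, was 0.22 higher with ketamine (95% interval 0.07 to 0.37, adjusted p = 0.754 by limma). The ketamine arrays read 8.43, 8.39 and 8.36 at 1 h and 8.29, 8.45 and 8.41 at 2 h, where the saline arrays read 8.19, 8.21 and 8.25 and then 8.19, 7.94 and 7.80. The later ketamine arrays read 8.51, 8.50 and 8.82 (4 h) and 8.01, 8.40 and 8.23 (8 h), where saline read 8.59, 8.29 and 8.12 and then 8.23, 8.17 and 8.15. Thus all ketamine arrays lay above all saline arrays at 1 and 2 h, while the groups overlapped at 4 and 8 h. Such a separation held in 3 of the 62 genes (4.84%) at 1 h and at 2 h, beside 5.19% and 5.36% of all probes. Within slides, the difference ran from -0.12 to 0.49, with ketamine higher on 8 of 10 slides. Most slides held no ketamine and saline arrays of the same time. With memantine the difference of Syn3 was 0.18 (0.00 to 0.35) and with PCP 0.11 (-0.04 to 0.27), both at an adjusted p of 1 and both set against the same saline arrays. Without the 7 arrays of high background the difference with ketamine was 0.17 (adjusted p = 0.886).

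Syt10, a synaptotagmin of secretory granules that is known from the rat hippocampus as a gene induced by seizures, had a difference of -0.37 with ketamine (-0.65 to -0.08, adjusted p = 0.754) and of -0.31 with memantine (-0.61 to -0.01, adjusted p = 1). Its probe was among the dim ones, and its highest values were on arrays of high background: 7.94 on saline 2 h replicate 3 and 8.21 on PCP 4 h replicate 2. Without the 7 arrays of high background the difference was -0.23 with ketamine and -0.20 with memantine. With PCP the difference of Syt10 was -0.02. Over the settings tried, it ran from -0.56 to -0.07 with ketamine and from -0.47 to -0.01 with memantine. Saline itself read 0.30 above naive mice for Syt10. Stxbp3 (Munc18-3), which binds the syntaxins of the cell surface outside the active zone, was 0.21 higher with ketamine (0.01 to 0.42, adjusted p = 0.758). Next in order of the test statistic were Syt11 (-0.24, -0.49 to 0.01) and Syt6, a dim synaptotagmin (-0.15, -0.31 to 0.02).

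With memantine, 0 of 62 genes passed beside 0.0243% of all probes, and 3 genes (4.84%) had an unadjusted p under 0.05 beside 3.48% of all probes. The median difference was -0.0129, and 30 genes were higher and 32 lower. Syn1 differed from saline by -0.18 (-0.33 to -0.02, adjusted p = 1), and within slides memantine was higher on 1 of 10. No slide held memantine and saline arrays of the same time, so this is not a same-time comparison. The second probe of Syn1, at a level of 12.82, gave a difference of 0.01. The other 2 were Syt10 and Syn3, described above, and they were followed by Stx18, a SNARE of the endoplasmic reticulum (0.14, -0.00 to 0.29), and Syt12, a vesicle protein that protein kinase A phosphorylates (0.17, -0.02 to 0.35).

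With PCP, 0 of 62 genes passed beside 0.00221% of all probes, and at an unadjusted p under 0.05 there was again none, beside 3.82% of all probes. The median difference was 0.0188, with 39 genes higher and 23 lower. The genes with the largest test statistic were Vamp1 (0.15, -0.01 to 0.30), the synaptobrevin of fast-spiking and motor neurons, Syt6 (0.21, -0.02 to 0.44), Cplx2 (0.21, -0.06 to 0.48), Cplx1 (0.11, -0.04 to 0.26) and Syn3. In Vamp1 the brightest probe also read 0.14 higher with ketamine (-0.02 to 0.31) and 0.16 higher with memantine (-0.02 to 0.33). For that probe saline differed from naive mice by -0.07 (-0.24 to 0.09).

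The intervals give the range of change that each brightest probe allows for the core of the release machinery. For Syt1 the difference was 0.06 with each drug, and as a change in percent the intervals were -6.24% to 15.2% for ketamine, -7.96% to 17.3% for memantine and -5.73% to 16% for PCP. For Vamp2 they ran from -11.9% to 4.55%, from -14.3% to 5.27% and from -8.89% to 9.53%, in the same order of drugs. For Sv2a they ran from -9.27% to 10.8%, from -10.7% to 9.91% and from -7.04% to 13.7%. These intervals hold for the brightest probe of each gene. The second probe of Syt1, at a level of 13.12, gave differences of -0.19, -0.13 and -0.02 on the log2 scale in the same order (adjusted p = 0.754 for ketamine by limma, and 1 for the others), and with ketamine this lies below the interval of the brightest probe, -0.09 to 0.20.

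Stx1a, Cplx2 and Syn2 were known less closely. The interval for Stx1a was -15.4% to 8.15% for ketamine, -20.8% to 5.61% for memantine and -11.9% to 12.9% for PCP. Cplx2, the complexin of excitatory neurons, had the widest interval of the core genes, -7.04% to 36.8% for ketamine, -8.05% to 34.1% for memantine and -4.04% to 39.6% for PCP. Syn2 read -0.17 with ketamine (-0.36 to 0.03), -0.01 with memantine (-0.22 to 0.19) and 0.11 with PCP (-0.08 to 0.31).

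**Figure D2:**
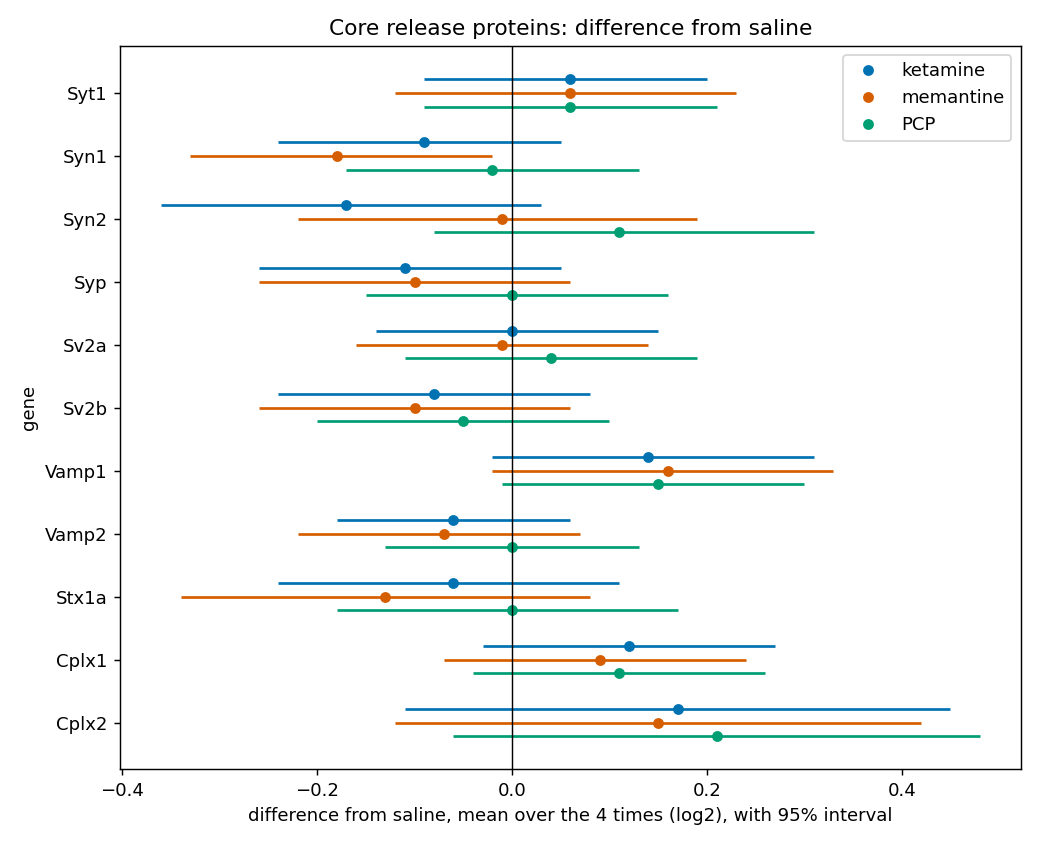
Difference from saline averaged over the 4 times (horizontal axis, log2) for 11 core release genes, with points for the estimate and lines for the 95% interval, by drug. Of the 33 intervals, 32 include 0 and that of Syn1 with memantine (-0.33 to -0.02) does not.

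Among members known for their response to activity or for a regional pattern, Syt10 and Syn3, described above, differed most with ketamine. Their differences were -0.37 and 0.22 with ketamine, and those of the others were smaller in size. With PCP this order did not hold, as Syt10 read -0.02 and Syn3 0.11. Syt4, which neuronal activity induces in the rat hippocampus, read -0.01 with ketamine (-0.22 to 0.20), 0.10 with memantine (-0.12 to 0.32) and 0.11 with PCP (-0.09 to 0.32). Stx11, a SNARE of immune cells, read 0.14, 0.06 and 0.02 in the same order, and Sv2c, an SV2 form of the basal ganglia, 0.11, 0.14 and 0.08. For the dim Syt2, Cplx3, Stxbp6 and Snap25 the differences lay between -0.10 and 0.11, and all their intervals included 0.

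The second question was how the differences ran from 1 to 8 h, which was asked at each time in a fit of all 60 arrays. With ketamine, 0 of 62 genes passed at any time, beside 0.00442% of all probes at 1 h and 0% at 2, 4 and 8 h. At an unadjusted p under 0.05 there were 0 genes at 1 h (2.84% of all probes), 6 at 2 h (9.68%, beside 7% of all probes), 0 at 4 h (2.11%) and 0 at 8 h (0.994%). The largest difference was that of Syt11 at 1 h (-0.49), of Syt10 at 2 and 8 h (-0.75 and -0.49) and of Vamp7 at 4 h (0.33).

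The 2 h group of ketamine holds the array with striatal markers, and its saline group holds an array of high background. The 6 genes at 2 h were Syt7, Syt10 and Stxbp5 (tomosyn, which blocks SNARE assembly), which read lower, and Syn3, Stx19 and Cplx2, which read higher, all at adjusted p between 0.634 and 0.705 by limma. Without ketamine 2 h replicate 2, the difference of Stxbp5 moved from -0.33 to -0.22 and that of Syt7 from -0.30 to -0.25. Without the arrays of high background, Syt10 moved from -0.75 to -0.29 and Stx19 from 0.55 to 0.14, while Cplx2 moved from 0.55 to 0.74. The counts of 0 at 4 and 8 h also depended on these arrays. Without them, Vamp5 (-0.57) and Stxbp3 (0.43) had an unadjusted p under 0.05 by limma at 4 h. At 8 h Syt10 (-0.49) and Vamp5 (0.45) did so. All were at an adjusted p of 0.96 or more, and the share of all probes is not given for that setting. The probe of Vamp5 averaged 6.954, close to the median probe.

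With memantine, 0 of 62 genes passed at any time, beside 0% of all probes at 1 h, 0.0552% at 2 h, 0.0133% at 4 h and 0% at 8 h. At an unadjusted p under 0.05 the counts were 3 at 1 h (4.84%, beside 2.35% of all probes), 12 at 2 h (19.4%, beside 10.6%), 0 at 4 h (beside 2.76%) and 2 at 8 h (3.23%, beside 6.93%). The 2 h point therefore held the largest count of any comparison, 7 lower (11.3%, beside 4.96% of all probes) and 5 higher (8.06%, beside 5.66%). The median difference of the 62 genes at 2 h was -0.105, beside 0.00517 over all probes, but it was 0.0588 over the second brightest probes of the genes that have one.

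The vesicle proteins Syn1, Syp and Syn2 were among the 7 lower genes at 2 h of memantine. Syp read 14.12, 14.24 and 14.30 with memantine and 14.71, 14.61 and 14.37 with saline, a difference of -0.34 (SE 0.13, adjusted p = 0.339). Syn1 read 13.27, 13.51 and 13.59 with memantine and 13.89, 13.74 and 13.82 with saline, a difference of -0.36 (SE 0.13, adjusted p = 0.323). In both, every memantine array lay below every saline array, which held in 6 of the 62 genes (9.68%) and in 4.86% of all probes. Syn2 read 12.19, 12.66 and 12.42 with memantine and 12.74, 12.86 and 12.92 with saline (-0.42, adjusted p = 0.434), again without overlap, but its other 2 probes read 0.33 and 0.34 higher. The second probe of Syn1 had a difference of -0.14, and the 3 probes of Syt1 had differences of -0.16, -0.41 and -0.12.

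Stxbp3 had the smallest unadjusted p of the 12 genes and lay on the other side of saline. It read 7.53, 7.73 and 8.04 with memantine and 7.29, 6.90 and 7.10 with saline, with no overlap and a difference of 0.67 (SE 0.20, adjusted p = 0.203), but its second probe, at a level of 6.73, had a difference of -0.13. Every memantine array lay above every saline array in 2 of the 62 genes (3.23%), beside 6.42% of all probes. The saline arrays at 2 h were low for Stxbp3 beside the naive arrays of that time (7.74, 7.44 and 7.37), and PCP read 0.43 higher and ketamine 0.38 higher against the same 3 arrays. At 8 h the difference of Stxbp3 with memantine was -0.49 (adjusted p = 0.688), which rested on an array of high background at 6.60 and became -0.19 without such arrays. The interaction of memantine and time had F = 4.80 for Stxbp3 (adjusted p = 1).

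The remaining genes with an unadjusted p under 0.05 at memantine 2 h, chosen after their values were seen, were Syt7, Sytl2, Sytl5 and Stxbp5 on the lower side and Syt9, Vamp8, Stx19 and Cplx2 on the higher side. Sytl2 and Sytl5 are synaptotagmin-like proteins that bind the GTPase Rab27, and their differences were -0.41 and -0.52. Vamp8 read 0.51 higher and Syt9, a calcium sensor of fast release, 0.62 higher, which became 0.24 without the arrays of high background. Over the 60 arrays, the deviations of Vamp8 from its group means followed those of the choroid plexus markers (r = 0.63) and the deviations of Syt9 those of the thalamic markers (r = 0.58), across arrays that share slides and background. Syt9 read 8.97 on memantine 2 h replicate 1, and 8.23 and 8.33 on the other 2 arrays. The part of these markers in the differences was not tested. That of Stx19 moved from 0.46 to 0.05 without the same arrays.

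One array carried much of the 2 h pattern of memantine. Without memantine 2 h replicate 1, 3 of the 62 genes (4.84%) had an unadjusted p under 0.05, beside 7.77% of all probes, and the median difference was -0.0359. Without memantine 2 h replicate 2 the count was 7 (11.3%, beside 11.1%), and without saline 2 h replicate 2 it was 9 (14.5%, beside 10.3%). Without memantine 2 h replicate 3 it was 16 (25.8%, beside 9.21%), and without saline 2 h replicate 1 or 3 it was 13 (21%, beside 16%) or 8 (12.9%, beside 7.93%). The same array had the highest mean of the interneuron markers of all 60 (11.78, against a median of 11.32) and the thalamic level given above. Their part in the result was not tested.

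The promoters of the 3 genes with the smallest unadjusted p at memantine 2 h are shown because the receptor blocked by these drugs acts on transcription partly through the cAMP response element, the site bound by CREB. The sequences are those of RefSeq on GRCm38.p6, from 250 bases before to 50 bases after the transcription start, on the strand of the gene, with capitals marking TGACGTCA. Syn1 lies at chrX:20920869-20921168 on the minus strand, Stxbp3 at chr3:108840453-108840752 on the minus strand and Syp at chrX:7638330-7638629 on the plus strand.
Syn1: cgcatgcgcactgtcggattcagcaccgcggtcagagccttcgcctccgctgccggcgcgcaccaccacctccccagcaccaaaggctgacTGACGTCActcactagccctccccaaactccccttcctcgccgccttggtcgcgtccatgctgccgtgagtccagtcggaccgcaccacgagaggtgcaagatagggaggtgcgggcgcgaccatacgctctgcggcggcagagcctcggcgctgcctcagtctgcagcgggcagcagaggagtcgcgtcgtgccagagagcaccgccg
Stxbp3: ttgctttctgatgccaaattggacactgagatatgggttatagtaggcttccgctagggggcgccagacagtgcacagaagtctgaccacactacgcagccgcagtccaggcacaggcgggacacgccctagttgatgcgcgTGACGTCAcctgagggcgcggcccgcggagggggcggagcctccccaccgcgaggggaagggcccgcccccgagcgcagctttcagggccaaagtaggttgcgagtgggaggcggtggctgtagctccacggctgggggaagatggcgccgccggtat
Syp: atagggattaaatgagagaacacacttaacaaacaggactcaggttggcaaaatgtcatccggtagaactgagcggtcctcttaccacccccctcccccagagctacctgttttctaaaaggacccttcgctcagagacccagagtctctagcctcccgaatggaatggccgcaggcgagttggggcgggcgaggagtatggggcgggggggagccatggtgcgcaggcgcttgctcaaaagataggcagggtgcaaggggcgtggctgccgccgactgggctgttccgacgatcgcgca

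The element stood 159 bases before the start of Syn1 and 108 bases before that of Stxbp3, and no match was in the window of Syp. Promoter windows were at hand for 49 of the 62 genes, 64 windows in all, and Syn1 and Stxbp3 were the 2 windows with the element (3.12%, beside 1.79% of 32851 windows of all genes on either strand). Their transcripts differed from saline in opposite directions at memantine 2 h. The Egr site GCGNGGGCG was in 7 of the 64 windows (10.9%, beside 5.55%), in Cplx1, Stx2, Stxbp5, Stxbp5l, Syn2, Syt16 and Vamp4. The E-box CACGTG was in 8 (12.5%, beside 7.15%) and the Sp1 site GGGCGG in 38 (59.4%, beside 35.7%). A match of letters is a description of the window and does not show that a factor binds there.

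At 1 h of memantine the 3 genes with an unadjusted p under 0.05 were Sv2c, Syt3 and Vamp1. Sv2c read 7.13, 7.27 and 6.59 with memantine and 6.36, 6.61 and 6.20 with saline, a difference of 0.61 (SE 0.17, adjusted p = 1), so that the groups overlapped by 1 array. The unadjusted p of Sv2c, 0.000589, was the smallest of any member in any comparison with a drug at a single time. Syt3, a synaptotagmin that acts in the uptake of AMPA receptors, read 7.26, 6.91 and 7.47 with memantine and 7.71, 7.98 and 7.74 with saline (-0.60, adjusted p = 1), with no overlap. At 1 h every memantine array lay below every saline array in 1 of the 62 genes (1.61%), beside 3.03% of all probes.

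Vamp1 read 10.04, 10.70 and 10.17 with memantine at 1 h and 10.04, 9.62 and 10.02 with saline (0.41, adjusted p = 1). Memantine 1 h replicate 2, the array with thalamic markers, was the highest of all 60 for Vamp1, and without it the difference was 0.21. Over the 60 arrays, the deviations of Vamp1 from its group means correlated with those of the thalamic markers at r = 0.41, as did those of Syn3 at r = 0.41, beside 0.58 for Syt9, -0.48 for Syt13 and -0.52 for Stx16, across arrays that share slides and background. Without the same array Sv2c read 0.47 higher (adjusted p = 1) and Syt3 had a difference of -0.45.

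At 8 h of memantine Syt12 read 8.98, 9.03 and 9.34, above all 3 saline arrays of 8.65, 8.63 and 8.62, and its difference was 0.48 (SE 0.15, adjusted p = 0.654). The highest of these was the array of high background, and without such arrays the difference was 0.37 (adjusted p = 1). At 8 h every memantine array lay above every saline array in 4 of the 62 genes (6.45%), beside 4.07% of all probes. At 4 h the largest difference was 0.39 in Cplx3, a complexin of retinal ribbon synapses whose probe was dim. The count of 0 at 4 h depended on the arrays of high background, saline 4 h replicate 3 among them. Without them, Vamp5 (-0.65), Stx6 (-0.45), Syn2 (0.45), Cplx3 (0.44) and Vamp4 (0.27) had an unadjusted p under 0.05 by limma. Their adjusted p was 0.717 or more.

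With PCP, 0 of 62 genes passed at any time, beside 0% of all probes at 1, 2 and 8 h and 0.00221% at 4 h. At an unadjusted p under 0.05 there were 6 genes at 1 h (9.68%, beside 4.45%), 5 at 2 h (8.06%, beside 8.4%), 0 at 4 h (3.88%) and 0 at 8 h (3.1%). Cplx2 was the largest difference at 1 h and was higher at both early times. It read 12.30, 12.06 and 12.14 at 1 h and 12.25, 12.08 and 12.12 at 2 h, and saline read 12.25, 11.09 and 11.63 at 1 h and 11.78, 10.81 and 11.87 at 2 h.

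The PCP arrays were close together in Cplx2 and the saline arrays were far apart. The difference was 0.51 at 1 h (SE 0.24, adjusted p = 0.996) and 0.66 at 2 h (SE 0.24, adjusted p = 0.435), then -0.38 at 4 h and 0.04 at 8 h. At 1 h it was 0.23 without saline 1 h replicate 2 and 0.81 without saline 1 h replicate 1. Its interaction with time had F = 3.23 (adjusted p = 1), and the interval for the mean over times was given above. Naive arrays read 12.01, 11.16 and 11.88 at 1 h, so the low values of Cplx2 were not confined to saline. The other genes with an unadjusted p under 0.05 at 1 h of PCP were Cplx1 (0.26), Vamp1 (0.31), Sv2c (0.36), Syt3 (-0.50) and Stx3 (-0.32), a SNARE of postsynaptic and epithelial membranes, all at an adjusted p of 0.996, and those at 2 h were Stx19, Stxbp3 (0.43), Cplx4 (0.49) and Syt13 (-0.31). Without the arrays of high background Syt3 moved to -0.27 at 1 h and Cplx2 to 0.86 at 2 h (adjusted p = 0.346).

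Stx19, a syntaxin without a membrane anchor that is known from epithelia, had the largest difference of PCP at 2 h. Its probe averaged 6.996, close to the median probe at 6.942. Stx19 read 6.99, 7.61 and 7.30 with PCP and 7.20, 6.87 and 5.80 with saline (0.68, SE 0.21, adjusted p = 0.373). The value of 5.80 was on saline 2 h replicate 3, of high background, and without the 7 arrays of high background the difference was 0.26 (adjusted p = 0.695). Without saline 2 h replicate 1 instead, where the low array weighs more, it was 0.96 at an adjusted p of 0.0229. Its second probe had a difference of -0.07.

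The largest differences at the later times of PCP were in Vamp7 at 4 h (0.48) and Syt6 at 8 h (0.23). Vamp7 read 10.36, 10.33 and 9.89 with PCP and 9.47, 9.46 and 10.21 with saline, which overlapped, and its second probe had a difference of -0.11. Without the arrays of high background, Vamp5 (-0.74), Cplx4 (0.57) and Syt4 (0.55) had an unadjusted p under 0.05 by limma at 4 h. Their adjusted p was 0.977. In the map of differences, each column of a given time rests on the same 3 saline arrays.

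**Figure D3:**
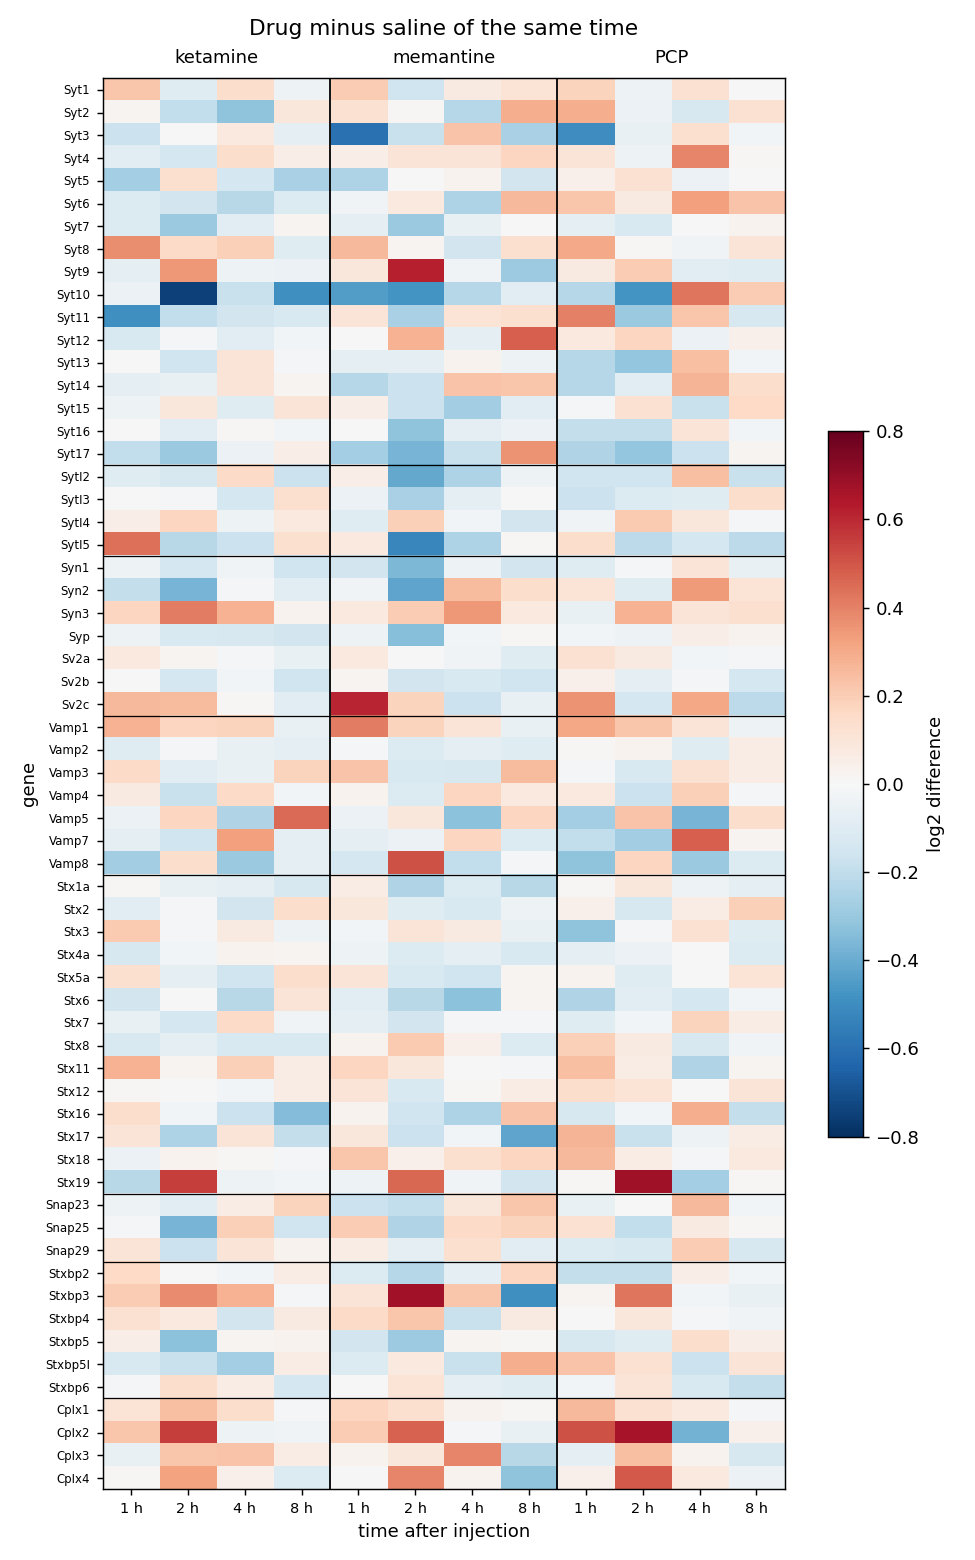
Difference from saline of the same time (colour, log2, from -0.8 in blue to 0.8 in red) for the 62 genes (vertical axis, lines between families) and the 12 combinations of drug and time (horizontal axis). The strongest colours are Syt10 at 2 h of ketamine (-0.75), Stx19 at 2 h of PCP (0.68) and Stxbp3 at 2 h of memantine (0.67), and no cell passed the adjusted threshold.

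**Figure D4:**
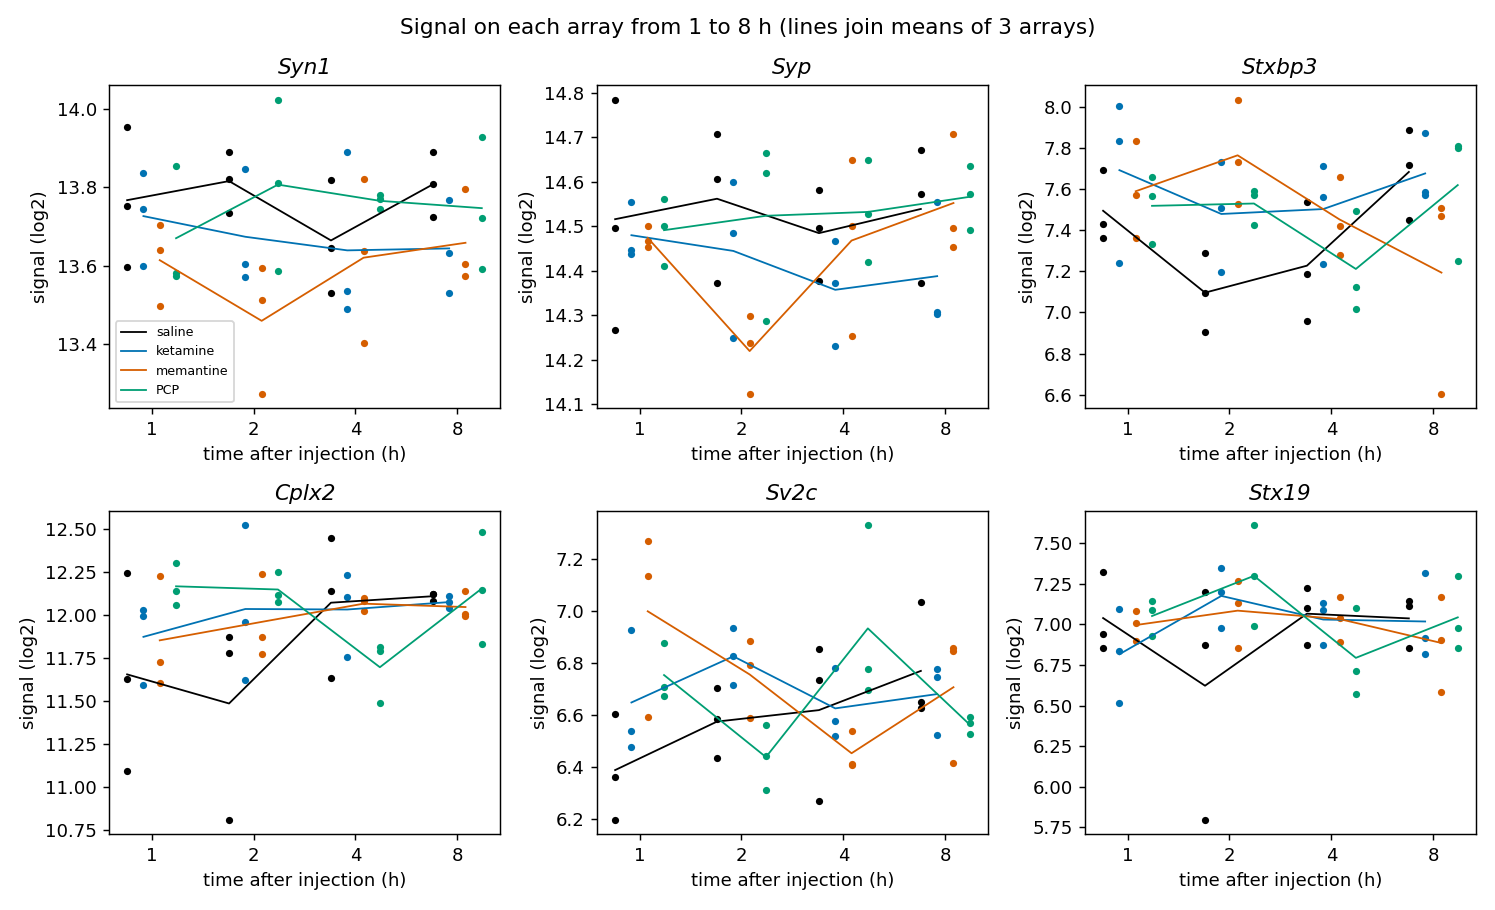
Signal on each array (vertical axis, log2 of normalized intensity) of Syn1, Syp, Stxbp3, Cplx2, Sv2c and Stx19 at 1, 2, 4 and 8 h (horizontal axis), with lines through the means of 3 arrays, by treatment. Memantine lies below saline at 2 h in Syn1 (-0.36) and Syp (-0.34), and the low saline values at 2 h in Stxbp3, Cplx2 and Stx19 are shared by all 3 drug comparisons.

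Whether the course of a drug differed from that of saline was tested as an interaction over 24 arrays. With ketamine 0 of 62 genes passed (0% of all probes) and 1 had an unadjusted p under 0.05 (1.61%, beside 2.42%), which was Sytl5. With memantine 0 passed (0%) and 2 did so, Stxbp3 and Sv2c (3.23%, beside 3.29%), and with PCP 0 passed (0%) and 2 did so, Syt13 and Cplx2 (3.23%, beside 3.48%).

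Time itself, averaged over saline and the 3 drugs on 48 arrays, came closest to a call. With 0 of 62 genes past the threshold beside 0.258% of all probes, 6 genes (9.68%, beside 5.79%) had an unadjusted p under 0.05: Syn3, Snap23, Snap29, Sytl2, Syt7 and Syt8. The differences of Syn3 from its level at 1 h were -0.07, 0.25 and -0.03 at the 3 later times in order (F = 7.15, adjusted p = 0.142 by limma). It passed without background correction (adjusted p = 0.0452) and when the brighter 50% of the probes alone were tested (adjusted p = 0.0465), but had an adjusted p of 0.526 with the slide as a block. These values rest on the brightest of 7 probes of Syn3. No member passed for time with the second brightest probe of each gene.

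The higher level of Syn3 at 4 h was seen in every treatment, with means of 8.33 for saline, 8.61 for ketamine, 8.68 for memantine and 8.43 for PCP. The naive mice, which were not in that fit, read 8.20, 8.28 and 8.43 (1 h), 8.44, 8.16 and 8.20 (2 h), 8.71, 8.45 and 8.51 (4 h), and 6.76, 8.07 and 8.15 (8 h). Their 3 values at 4 h were above all other naive values, and the value of 6.76 was on an array of high background. With the naive arrays in the fit the adjusted p was 0.569.

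Snap23, a relative of Snap25 that also acts in the dendritic traffic of NMDA receptors, read -0.20, -0.35 and -0.26 at 2, 4 and 8 h relative to 1 h (F = 5.47, adjusted p = 0.352). Its means at 1 h were 9.52 for saline, 9.48 for ketamine, 9.35 for memantine and 9.46 for PCP, and at 4 h they were 8.99, 9.05, 9.08 and 9.26. In naive mice the means were 9.38 at 1 h, 9.35 at 2 h, 9.21 at 4 h and 9.03 at 8 h, and the arrays at 1 and 4 h overlapped. The hour of the day and the time after injection cannot be told apart in the injected groups.

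**Figure D5:**
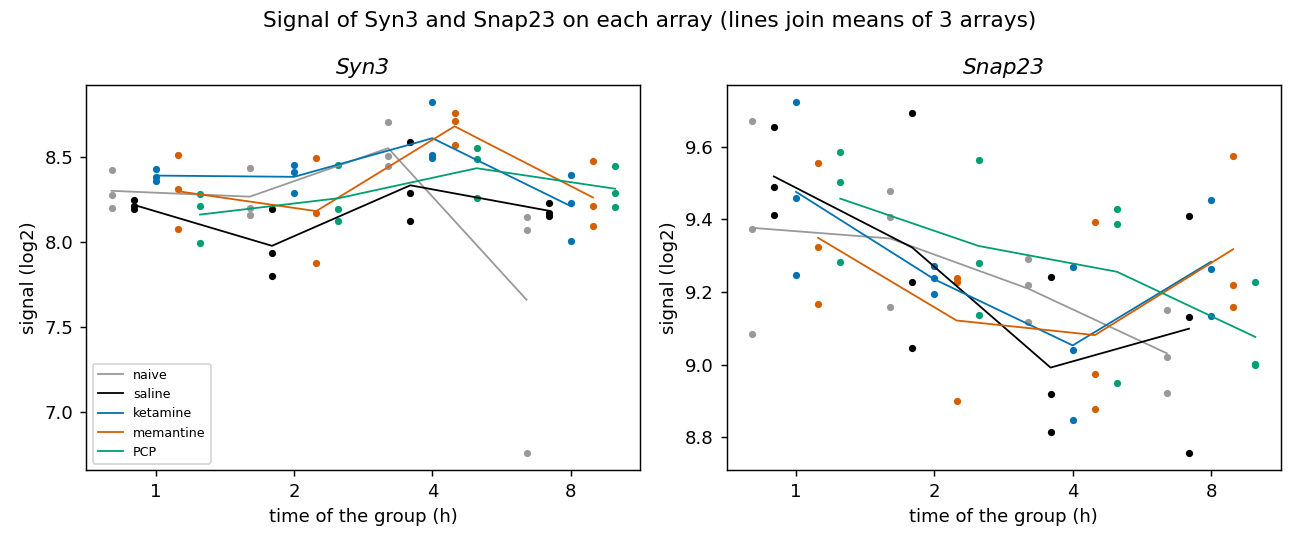
Signal on each array (vertical axis, log2 of normalized intensity) of Syn3 and Snap23 by time of the group (horizontal axis) and treatment, with lines through the means of 3 arrays. Syn3 is highest at 4 h in all 5 treatments, with group means of 8.33 to 8.68, and the single value of 6.76 is a naive array of high background.

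Injection with saline gave a background for the drugs. Against naive mice 0 of 62 genes passed (0.00221% of all probes) and 0 had an unadjusted p under 0.05 (beside 3.28%), and the differences ran from -0.22 in Syt11 to 0.30 in Syt10.

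Probes of the same gene often did not agree in direction. Of the 35 genes with several probes, the second brightest probe had the same sign as the brightest in 17 with ketamine, 21 with memantine and 24 with PCP in the means over times, and in 18 at memantine 2 h. Among the 23 genes with both probes in the brighter 50%, the counts were 11, 14 and 16, and 13 at memantine 2 h.

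Some pairs of the core genes varied together from array to array, and those named here are among the strongest. Over the 60 arrays, with group means removed, Syn1 and Syp deviated together (r = 0.75, and 0.76 with slides also removed), as did Stx1a and Cplx1 (r = 0.68), Syt1 and Vamp2 (r = 0.63) and Vamp1 and Cplx1 (r = 0.57). Sv2b and Cplx2 deviated in opposite directions (r = -0.64). Other pairs had values near 0 or below, among them Syn1 and Syn2 (r = -0.02), Syt1 and Cplx2 (-0.05) and Sv2a and Sv2b (-0.34). These are descriptions across arrays that share slides and background, and arrays of the same slide deviated together over all probes (mean r = 0.187, against -0.0172 for different slides). Syn2 followed the markers of the hippocampal subfields (r = 0.52) and ran against those of the striatum (r = -0.48). The lowest value of Syn2, 11.98, was on ketamine 2 h replicate 2, the array with striatal markers.

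The neighbouring steps of the vesicle cycle gave the same count. Of 17 genes of priming and of the NSF cycle that recycles SNAREs, such as Unc13a and Rab3a, 0 passed the adjusted threshold in any comparison. The same held for 14 genes of the active zone scaffold, 13 other vesicle membrane proteins and transporters and 12 genes of vesicle endocytosis. At most 0.258% of all probes passed in a comparison (time), so a count of 0 in lists of this size says little. The median differences of these lists with the 3 drugs in the means over times lay between -0.0307 and 0.0366. At memantine 2 h the medians of these 4 lists were -0.106, -0.113, -0.159 and -0.0951 in the order given, and that of 9 general neuronal markers was -0.138, beside 0.00517 over all probes.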

How the data were processed

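Total RNA of mouse hippocampus was hybridized to 60 Illumina arrays of 10 slides with 6 arrays each. The authors deposited BeadStudio intensity values, 1 column an array on a linear scale and not normalized, and a table of log2 values that they had background-subtracted and quantile normalized; the intensity table was used here and the log2 table as an alternative. Intensities were corrected with normexp (offset 50), quantile normalized and set on the log2 scale in limma 3.58.1 (R 4.3.3). Probes were named through the platform annotation (34885 with 1 symbol, 18 with several, 10378 with none). Group means were fitted with lmFit and eBayes, on the 24 arrays of a drug and saline for means over the times and interactions, on 48 for time and on all 60 for single times, with 2-sided tests and Benjamini-Hochberg adjustment over 45281 probes at 0.05. Intervals are 95%. The number of arrays limits the precision. The fits were tested on simulated data. Figures were drawn with matplotlib 3.10.9.

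The members and the gene lists were chosen with earlier results of these data known. Named were the genes past the threshold, the 5 members with the largest test statistic for each drug, the member with the largest difference at each drug and time, 12 core release proteins and 8 members of known activity or regional pattern. Members named for an unadjusted p under 0.05 alone, Snap23 among them, and the promoters shown were chosen after their values were seen. Arrays counted as of high background where the 5th percentile of intensity was above 300. Promoter sequences came from RefSeq. Correlations of deviations from the group means were no higher between arrays of the same replicate number (mean r = -0.0107) than between others (0.0064), so the numbers were not taken as pairs. Alternatives were the background correction, the normalization, a filter on dim probes, the slide or replicate number as a block, the variance, the probe, the control group and leaving out arrays.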

Additional observations from a re-analysis of the deposited data

How the results depend on the processing

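The count of members past the threshold was 0 in all 20 comparisons under the authors' log2 values, a normexp offset of 16, the slide as a block, ordinary variances, trended and robust variances, other arrays in the fit, the second brightest probe and without the arrays of high background, and in the 18 comparisons possible with naive mice as the control. With the replicate block the count was also 0 in all 20. It was 1 for time, Syn3, without background correction and with the brighter 50% of the probes. Leaving out 1 array at a time, the counts ran from 0 to 1, the 1 being Stx19 for PCP at 2 h without saline 2 h replicate 1. Of 78 named differences, 38 had another sign under at least 1 setting: 24 of 42 with the second probe, 17 when 1 array was left out, 14 against naive mice, 11 without the arrays of high background, 4 with the slide as a block and 1 with the offset of 16. Among those named for their test statistic or size, the direction turned in Cplx3 with memantine at 4 h with the slide as a block (-0.00), in Vamp7 with ketamine at 4 h against naive mice (-0.09), and, with the second probe, in Syn1 for memantine over the times (0.01), Vamp7 for ketamine at 4 h (-0.29), Stxbp3 for memantine at 2 h (-0.13) and 8 h (0.02), Stx19 for PCP at 2 h (-0.07) and Vamp7 for PCP at 4 h (-0.11). The core proteins whose sign turned with the second probe included Syt1 with ketamine (-0.19) and memantine (-0.13), Syn1 with ketamine (0.05) and Sv2b with ketamine (0.09), and the others included Stx11 with ketamine (-0.13) and Syt4 with memantine (-0.13). The causes were not tested. The median difference of the members at memantine 2 h ran from -0.114 to 0.0588 over the settings and from -0.12 to -0.0359 when 1 array was left out. With 3 arrays a group, 14 members in the dimmer 50%, others such as Stx19 near the median probe and both Snap25 probes dim, small changes of single members were not detectable.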
